A study of Rattus norvegicus with 8 samples.

Results

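The arrays described here hold RNA from rat neurons that received CAT-SKL first and ADDL afterwards, which the labels call CAT+ADDL. They were chosen by title and are 2 of the 8 arrays of the study. Each array set treated RNA in Cy5 against vehicle RNA in Cy3, so that a log2 ratio above 0 means a higher signal after treatment. The cells were primary cortical and hippocampal neurons of Sprague Dawley rats at embryonic day 18, grown from tissue of a commercial supplier and kept for 7 days in vitro. In the CAT+ADDL arm, 1 µM CAT-SKL was given for 24 h and then 1 µM ADDL for 24 h, on days 8 and 9. The other groups, of 2 arrays each, were CATSKL (CAT-SKL alone for 24 h), ADDL (ADDL alone for 24 h) and ADDL+CAT (the same agents in the opposite order, 24 h each). Each agent was given at 1 µM in these groups as well. On which day the single treatments were given is not clear from the sources used here. The labels name no genetic change, and the composition of the vehicle is not given in the sources used here. The samples' labels call the control vehicle, whereas the series' design text calls it untreated. The design asks how gene expression after the oligomers depends on catalase given beforehand or afterwards.

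ADDL are soluble amyloid-beta oligomers, a form of the plaque peptide of Alzheimer's disease, and they bind to synapses of cultured neurons. CAT-SKL is a form of catalase, the enzyme that splits hydrogen peroxide, with a serine-lysine-leucine signal at its end that is recognised for import into peroxisomes. Peroxisomes are organelles that oxidise very long fatty acids and both make and remove hydrogen peroxide. Cultures of embryonic cortex and hippocampus contain neurons together with astrocytes, precursors of oligodendrocytes and dividing progenitors, so a ratio in total RNA can follow the share of a cell type as well as its RNA content.

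The labels call the CAT+ADDL arrays biological replicates, and duplicate spots were used to see whether the arrays differed by more than spots do. Over 13899 probes with at least 2 spots, the SD of the difference between the CAT+ADDL arrays was 0.0850 on the log2 scale, against 0.0842 from the spread between spots, a ratio of 1.01. The array difference read from first spots was unrelated to that from second spots, with r = 0.00972 over probes, which are not independent of one another. Elsewhere, over the 27 remaining array pairs, r ranged from 0.296 to 0.710 and the SD exceeded spot noise by a factor of 1.36 to 2.43. The 3 other pairs within a group had an SD of 0.144 to 0.167. The nearest array of another group was CATSKL array 1, at SDs of 0.109 and 0.115 from the CAT+ADDL arrays. The CAT+ADDL arrays thus differed from each other by no more than spot noise and were averaged and counted as 1 sample. Values are given for each array of each gene described, but they do not measure the spread between cultures.

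**Figure D1:**
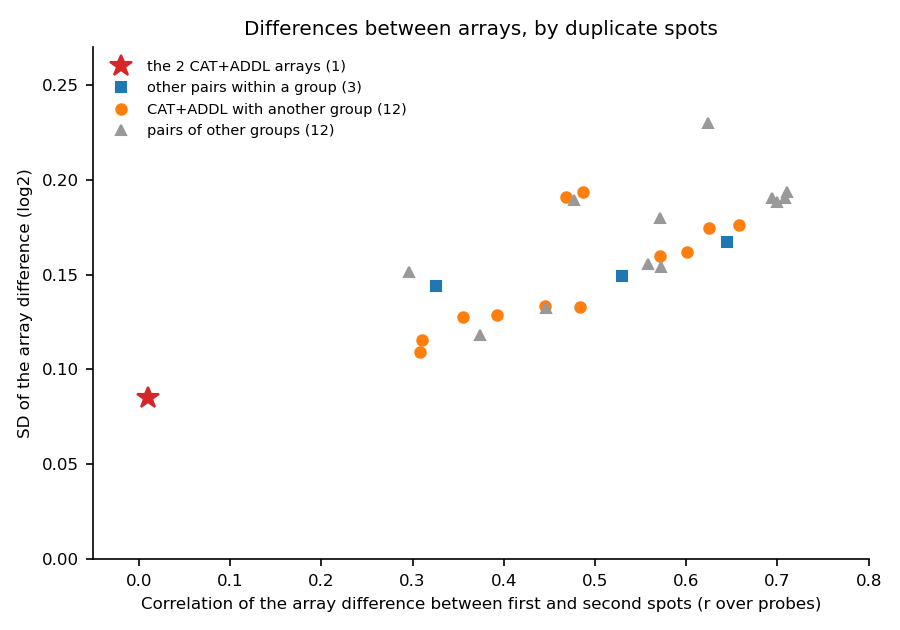
Each point is a pair of arrays; the x axis gives the correlation, over probes, of the array difference between first and second spots, and the y axis the SD of that difference in log2 units. The CAT+ADDL pair (star) sits alone at r = 0.00972 and an SD of 0.0850, while the other 27 pairs have r of 0.296 or more.

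The share of probes well above background ranged over the 8 arrays from 73.0% to 80.8% in Cy5 and from 71.2% to 77.1% in Cy3, with no saturated non-control spot. ADDL+CAT array 2 had the lowest Cy5 share and the lowest median Cy5 signal, 87.5 against 97 to 127.5 elsewhere. Spot noise was 0.094 to 0.115 in pairs with that array and 0.078 to 0.088 in pairs without it. The labelled cell type was checked on its markers: 17 of 18 general neuronal genes were measured, with a median vehicle signal of 3369 on array 1, and Rbfox3 was not. The CAT+ADDL arrays had median Cy5 signals of 123 and 124 over a local background of 24. Precision was limited by the number of arrays. Over genes, the median 95% interval of the averaged CAT+ADDL sample reached 0.20 on the log2 scale to each side against vehicle, and 0.25 against another treatment. Vehicle was always in Cy3, so a dye effect of a probe and the treatment cannot be told apart in the ratio, although a dye effect cancels between treatments. The CAT+ADDL and ADDL+CAT arrays shared a slide row that the single treatments did not, and had longer treatment. In comparisons with a single treatment, row, duration, any difference in treatment day and the added agent cannot be told apart.

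Against vehicle, the CAT+ADDL arrays showed higher signals of astrocyte, oligodendrocyte-lineage and cell-division genes, and lower signals of some presynaptic and immediate early genes, fewer of them with median centring. The largest ratio was that of Cdhr1, a photoreceptor cadherin also known from the olfactory bulb, which was 3.52-fold above vehicle. Of 22394 genes and unnamed transcripts tested, 109 were at least 1.5-fold higher on both arrays (0.487%) and 42 at least 1.5-fold lower (0.188%). A weaker threshold of 0.32 on the log2 scale, which is 25% above or 20% below vehicle, was passed on both arrays by 427 genes upward (1.91%) and 475 downward (2.12%). In the gene groups described here, higher and lower mean past this threshold on both arrays. The shares of 1.91% and 2.12% stand beside the count of each list, also where that count is 0. With each array centred on its median in place of loess, which removes no trend with brightness, 89.3% of the genes past 0.32 were higher ones in place of 47.3%, and 96.6% of those past 1.5-fold in place of 72.2%. With the deposited log ratios these shares were 44.6% and 62.5%. Past 0.32, median centring gave 1561 higher and 188 lower of 22394 genes, and the deposited log ratios 1415 and 1755. List counts under these settings stand beside those numbers. None of the genes passed limma at an adjusted p below 0.05 (0.0%, smallest adjusted p = 0.165), while 2545 had an unadjusted p under 0.05 (11.4%). With the CAT+ADDL arrays counted as 2 separate samples, 2328 genes passed, but over the probes these arrays differ by no more than spot noise. With median centring, 312 passed. Genes without a symbol made up 42.4% of those tested, but 12 of the 109 at least 1.5-fold higher and 32 of the 42 at least 1.5-fold lower. The lowest ratio of all belonged to such a transcript (-1.48).

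**Figure D2:**
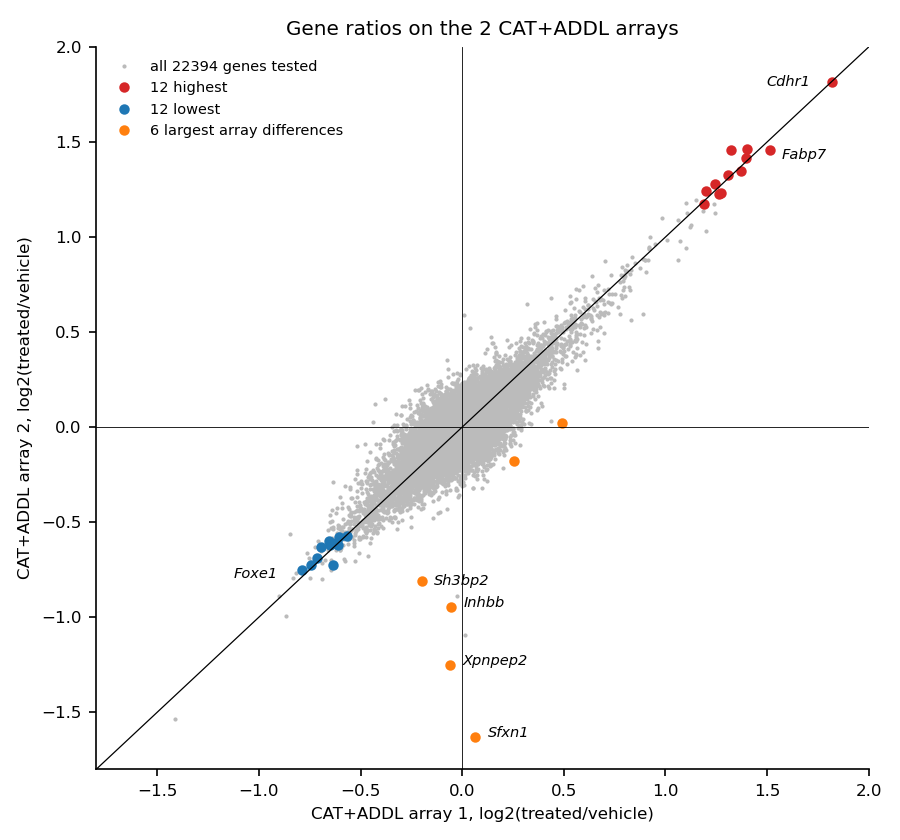
Each grey point is 1 of 22394 genes tested, with its log2 ratio of treated over vehicle on CAT+ADDL array 1 (x axis) and array 2 (y axis); the diagonal marks equal values. The 12 highest (red) and 12 lowest (blue) named genes lie on the diagonal, whereas Sfxn1, Xpnpep2, Inhbb and Sh3bp2 (orange) are low on array 2.

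The 12 named genes with the highest ratios included 3 of the astrocyte markers, Fabp7, Gja1 and S100b. Fabp7, the fatty acid binding protein of radial glia and astrocytes, had log2 ratios of 1.51 and 1.46, and its Cy5 signals of 14442 and 14107 compared with Cy3 signals of 3931 and 3748. On the other arrays Fabp7 read 1.69 and 0.65 after CATSKL, 0.90 and 1.45 after ADDL, and 0.59 and -0.15 after ADDL+CAT. Apoe, the main lipid carrier made by astrocytes, gave 1.40 and 1.46, between 0.25 and 1.92 elsewhere. Both genes were thus high on CATSKL array 1 and ADDL array 2 as well, and the CAT+ADDL values fell inside the range of the other arrays.

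Gja1, the gap junction protein of astrocytes, gave 1.37 and 1.35, and Ndrg2, an astrocyte-enriched stress-response gene, 1.31 and 1.33. S100b, a calcium-binding protein of astrocytes, gave 1.246 and 1.28, although its other probe gave 0.26. Pdpn, the membrane glycoprotein podoplanin, gave 1.32 and 1.46, and its other probe 0.26. Scrg1 gave 1.20 and 1.24, and Vcam1, a cell adhesion molecule, 1.19 and 1.17. For each of these 6 genes ADDL+CAT array 2 had the lowest ratio of the 8 arrays, between -0.13 and 0.30.

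Bcas1, a gene of newly forming myelinating oligodendrocytes, was one of the 2 among the 12 that lay above all other arrays. Bcas1 was read on the brighter of its 2 tested probes. Over all genes tested, both CAT+ADDL arrays lay above the other 6 for 4.11% and below them for 4.07%. These shares stand beside each gene said here to lie above or below all other arrays. Its log2 ratios were 1.40 and 1.41, against 1.17 and 0.16 after CATSKL, 0.54 and 0.59 after ADDL, and -0.08 and -0.41 after ADDL+CAT (limma 1.41 ± 0.27 against vehicle, SE, adjusted p = 0.195). Its Cy5 signals were 2232 and 2366 on the CAT+ADDL arrays, whereas Cy3 stayed between 577 and 702 on all arrays. Cdkn1c, an inhibitor of cyclin-dependent kinases, was the other, at 1.26 and 1.23 against -0.11 to 1.11 elsewhere (1.24 ± 0.21, adjusted p = 0.195), and its other probe gave 0.59. Cort, the neuropeptide cortistatin of inhibitory neurons, gave 1.27 and 1.23 and overlapped only CATSKL array 1 (1.23). Over the 12 genes, limma's adjusted p lay between 0.195 and 0.278. With either CATSKL array left out, Cdhr1, Cdkn1c and Bcas1 kept values of 1.82, 1.24 and 1.41 against vehicle. The CATSKL group then holds 1 array, and the spread between its arrays no longer enters the fit. Genes that then passed limma were the same for both omissions and give no separate support. With CAT+ADDL array 1 left out, 5 passed, and Xpnpep2, Sfxn1 and Inhbb, each low through 1 spot of array 2, were among them.

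Cdhr1 had the same ratio on both CAT+ADDL arrays, 1.82, but split the arrays of the study. It read 2.43 on CATSKL array 1 and 2.28 and 2.17 after ADDL, but 0.11 on CATSKL array 2 and 0.13 and 0.03 after ADDL+CAT. Its vehicle signal in Cy3 stayed between 1792 and 2134 on all arrays, while Cy5 ranged from 1646 to 12962 and was 8858 and 9194 after CAT+ADDL. The arrays within the CATSKL group thus differed for Cdhr1 by more than the CAT+ADDL value differed from vehicle, and limma gave 1.82 ± 0.58 (adjusted p = 0.278).

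**Figure D3:**
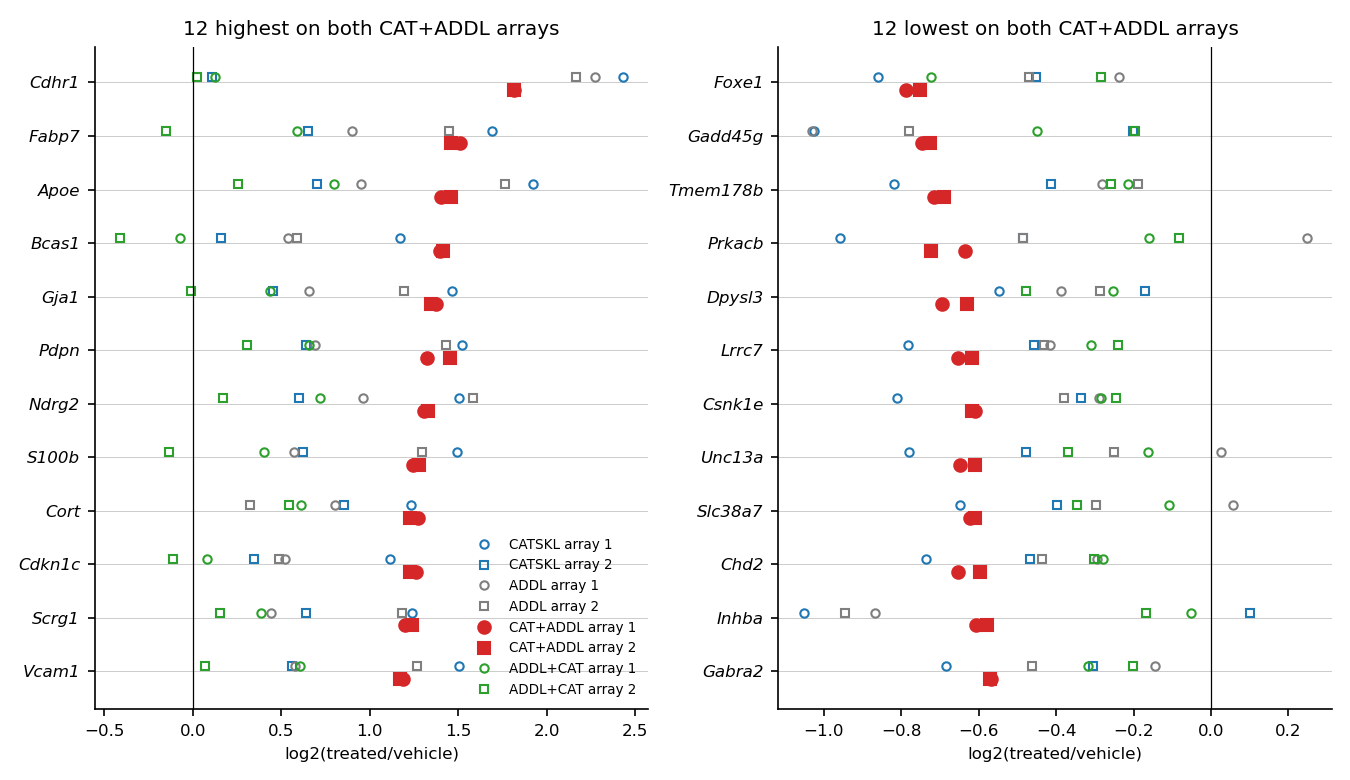
Log2 ratios of treated over vehicle (x axis) on each of the 8 arrays for the 12 highest and the 12 lowest named genes; filled red symbols are the CAT+ADDL arrays, open symbols the other treatments, circles array 1 and squares array 2. The red symbols of a gene almost coincide, and both lie beyond all other arrays for 2 of the 12 highest (Bcas1 and Cdkn1c) and 1 of the 12 lowest genes (Dpysl3). Over all genes tested, both lie above the other arrays for 4.11% and below them for 4.07%.

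As a list, astrocyte markers stood highest: 12 of 17 measured members were higher and 0 lower, beside 1.91% and 2.12% of all genes. The median log2 ratio was 0.50, against -0.004 over all genes. It was 0.75 and 0.20 on the CATSKL arrays, 0.32 and 0.78 after ADDL, and 0.28 and -0.02 after ADDL+CAT, so the CAT+ADDL median lay within the range of the single treatments. Slc1a3, a glutamate transporter of astrocytes, gave 1.246 and 1.13 (its other probe 0.63), and Aqp4, their water channel, 1.18 and 1.14, although other probes of Aqp4 gave 0.19 and 0.11. Gfap, the intermediate filament of astrocytes, gave 0.44 and 0.37 from dim signals, 102.1 and 103 in Cy5 over 65.2 and 66.1 in Cy3. Summed over the 17 markers, signals were 40365 and 40981 in Cy5 and 16064 and 16016 in Cy3. In total RNA, more cells of a type and more RNA per cell cannot be told apart, and the part of glial RNA in the other ratios was not tested.

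Among oligodendrocyte-lineage markers, 9 of 18 were higher and 0 lower, with a median of 0.38. The list median was 0.46 and 0.07 on the CATSKL arrays, 0.15 and 0.13 after ADDL, and 0.03 and -0.11 after ADDL+CAT. The CAT+ADDL median thus lay below that of CATSKL array 1. Pdgfra, the growth factor receptor of oligodendrocyte precursors, gave 1.24 and 1.17, within the range of 0.42 to 1.56 elsewhere. Bcan, a proteoglycan of the extracellular matrix, gave 0.98 and 1.10, Olig1, a transcription factor of the lineage, 0.90 and 0.88, and Cspg4, the precursor marker NG2, 0.78 and 0.80. Mbp, the myelin basic protein of mature oligodendrocytes, gave 0.83 and 0.89 and lay above all other arrays: 0.70 and -0.78 after CATSKL, 0.41 and -0.29 after ADDL, and -1.21 and -1.02 after ADDL+CAT. Its Cy5 signals were 2051 and 2228 after CAT+ADDL and 437 and 330 after ADDL+CAT, against Cy3 signals of 810 to 1006 on all arrays. Another probe of Mbp gave -0.01, and the probes of this gene disagree.

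Lists of other cell types had medians nearer 0, and their counts stand beside 1.91% higher and 2.12% lower over all genes. Of 17 microglia markers, 0 passed 0.32 in either direction (median 0.05), with Cx3cr1 at 0.25 and 0.25 and Trem2 at -0.27 and -0.13. The microglia markers Itgam and Ptprc were not measured. Endothelial and pericyte markers had 0 of 14 past 0.32 (median 0.01), although Tagln, a smooth muscle protein, read 0.31 and 0.41. Fibroblast and meningeal markers had 1 of 12 higher, the matrix protein gene Fn1 (0.43 and 0.38; another probe 0.07), and 1 lower, the proteoglycan gene Dcn (-0.52 and -0.55). The medians of the microglia and endothelial lists turned slightly negative with median centring (-0.02 and -0.05).

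Genes of cell division and neural progenitors were higher on both arrays in 11 of 20 measured members, with 0 lower and a median of 0.39. Rrm2, a subunit of the enzyme that makes deoxyribonucleotides, gave 1.06 and 1.09 and lay above the other arrays (0.34 to 0.97), although its other probe gave 0.34. Cdk1, the kinase that starts mitosis, gave 0.81 and 0.85, and Ccna2, cyclin A, 0.70 and 0.88. Ccnb1, cyclin B, gave 0.42 and 0.51, and Birc5, the mitotic protein survivin, 0.46 and 0.42. Mcm3, part of the helicase that opens DNA for replication, gave 0.65 and 0.73 and lay above all other arrays (0.01 to 0.53), although its other probe gave 0.17. Of the progenitor genes, Sox2 gave 0.80 and 0.81 and Notch1 0.78 and 0.84, but another Notch1 probe gave -0.08. Pax6 read -0.02 on both arrays. The list median was 0.36 and 0.15 after CATSKL, 0.24 and 0.38 after ADDL, and 0.27 and 0.00 after ADDL+CAT.

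Promoters of 4 of these cell-division genes are shown because their products act together in the cell cycle and were all higher. They are the 250 bases before the transcription start in RefSeq's GRCr8 assembly, 5′ to 3′, with capitals at the CCAAT box (CCAAT) and the cell cycle homology region (TTTGAA), both searched on either strand, where they share no bases.
Ccnb1, chr2:33655226-33655475, minus strand: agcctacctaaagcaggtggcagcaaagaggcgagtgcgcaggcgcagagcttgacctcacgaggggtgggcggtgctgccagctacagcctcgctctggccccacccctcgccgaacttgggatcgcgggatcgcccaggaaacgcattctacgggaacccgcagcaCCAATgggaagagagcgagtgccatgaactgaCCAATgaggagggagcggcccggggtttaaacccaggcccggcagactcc
Cdk1, chr20:19265043-19265292, plus strand: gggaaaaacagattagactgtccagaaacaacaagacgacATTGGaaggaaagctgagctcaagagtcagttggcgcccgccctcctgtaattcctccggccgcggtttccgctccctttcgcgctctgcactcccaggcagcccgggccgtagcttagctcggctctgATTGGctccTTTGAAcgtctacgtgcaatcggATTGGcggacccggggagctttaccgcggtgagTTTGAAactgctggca
Birc5, chr10:103571896-103572145, plus strand: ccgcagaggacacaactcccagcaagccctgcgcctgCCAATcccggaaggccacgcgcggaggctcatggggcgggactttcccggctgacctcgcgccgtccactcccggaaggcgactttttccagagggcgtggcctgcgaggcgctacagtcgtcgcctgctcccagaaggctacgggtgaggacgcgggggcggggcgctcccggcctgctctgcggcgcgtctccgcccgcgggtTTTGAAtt
Mcm3, chr9:30733747-30733996, minus strand: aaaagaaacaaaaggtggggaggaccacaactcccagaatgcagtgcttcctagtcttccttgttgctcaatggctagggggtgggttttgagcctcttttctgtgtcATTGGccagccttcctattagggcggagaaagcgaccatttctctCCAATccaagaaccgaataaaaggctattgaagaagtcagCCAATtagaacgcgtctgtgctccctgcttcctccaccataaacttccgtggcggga

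CCAAT boxes stood at positions -82 and -50 of Ccnb1, counted to the first base of the box from the start site, and TTTGAA stood at -8 of Birc5 and at -72 and -16 of Cdk1. Ccnb1 and Mcm3 had no TTTGAA in these windows. Of the 17 promoters found for measured and listed division and progenitor genes, 11 held CCAAT (64.7%) and 7 held TTTGAA (41.2%), against 34% and 16.2% of 33360 rat promoters of the same length. A match describes letters and is no evidence that a factor binds.

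Genes of inhibitory neurons were higher in 7 of 21 members with 0 lower (median 0.21), while 0 of 11 genes of excitatory neurons passed 0.32 (median -0.04). The inhibitory median was 0.22 and 0.08 on the CATSKL arrays, 0.16 and 0.14 after ADDL, and 0.13 and 0.03 after ADDL+CAT. The vesicular GABA transporter gene Slc32a1 gave 0.80 and 0.69, against 0.25 to 1.01 elsewhere. Gad1, which makes GABA, gave 0.67 and 0.58 on its brightest probe but 0.03 on another. Among excitatory genes, Neurod2 read -0.36 and -0.29 and the vesicular glutamate transporter gene Slc17a6 0.23 and 0.26.

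Of 24 neuropeptide genes, 4 were higher and 0 lower: Cort, Npy (0.54 and 0.53), Crh (0.54 and 0.45) and Penk (0.46 and 0.43). Npy and Crh were above vehicle on every array. Penk, the enkephalin precursor, ran differently: it was below vehicle after ADDL (-0.23 and -0.38) and above it after ADDL+CAT (0.49 and 0.53), and the CATSKL arrays read 0.09 and 1.09.

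The lowest ratios were smaller in size. Foxe1, a forkhead transcription factor, read -0.79 and -0.75, inside the range of the other arrays (-0.86 to -0.24). Gadd45g, a growth arrest and DNA damage gene that neuronal activity also induces, read -0.75 and -0.73, and Tmem178b -0.72 and -0.69 (another probe -0.19). Prkacb, a catalytic subunit of protein kinase A, read -0.63 and -0.72. Dpysl3, which acts on the cytoskeleton of growing axons, read -0.69 and -0.63 and was the only 1 of the 12 lowest that lay below all other arrays (-0.55 to -0.17; limma -0.66 ± 0.13, adjusted p = 0.195). Csnk1e (-0.61 and -0.62; other probes -0.45 and -0.09), Slc38a7 (-0.62 and -0.61) and Gabra2, a GABA receptor subunit (-0.57 and -0.57), were also among the 12, as was the chromatin remodeller Chd2 at -0.65 and -0.60, whose other probes gave -0.52 and -0.82. CATSKL array 1 was below vehicle for all 12.

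Presynaptic genes were lower in 5 of 24 members with 0 higher (median -0.12), but with median centring 1 was higher and 1 lower (median -0.07). Among them were Unc13a, which primes vesicles (-0.65 and -0.61), the fusion regulator Cplx2 (-0.52 and -0.44), the vesicle protein gene Vamp2 (-0.38 and -0.41) and the active zone scaffold Pclo (-0.35 and -0.35). Unc13a read 0.03 and -0.25 after ADDL alone and -0.78 and -0.48 after CATSKL alone. Postsynaptic genes had 2 of 24 lower, the scaffold genes Lrrc7 (-0.65 and -0.62) and Dlg2 (-0.41 and -0.44), and 2 higher, among them the glutamate receptor gene Gria3 (0.55 and 0.46; another probe -0.11). Of 17 general neuronal markers, 2 were lower, the enolase gene Eno2 (-0.45 and -0.49) and the microtubule gene Dcx (-0.41 and -0.41). With median centring the neuronal markers turned, with 3 higher, 0 lower and a median of 0.17 in place of -0.05.

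Voltage-gated channels had 2 of 24 lower (median -0.14), Cacna1a (-0.36 and -0.43; another probe 0.05) and the sodium channel gene Scn8a (-0.35 and -0.39). Axon guidance genes had 3 of 20 lower (median -0.11), the netrin receptor gene Dcc (-0.39 and -0.38), Plxna2 (-0.39 and -0.37) and Slit2 (-0.38 and -0.44; another probe 0.08). Tubulins went the other way, with 4 of 15 higher, among them Tuba1a at 0.63 and 0.58, and 1 lower, Tuba8 (-0.38 and -0.36), and with median centring 9 were higher and 0 lower. Of 10 measured linker histone, variant histone and chromodomain genes, 2 were lower, Chd2 and the linker histone H1f4 (-0.57 and -0.55), and 1 higher, H1f5 (0.40 and 0.43). Ratios of Tuba1a were between 0.41 and 0.95 and those of H1f4 between -0.76 and -0.26 on the other arrays, so neither stood apart after CAT+ADDL.

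Immediate early genes, which neuronal activity switches on within minutes, were lower in 4 of 24 members with 0 higher (median -0.10), but with median centring 1 was higher and 2 were lower (median -0.028). Inhba, the activin subunit, read -0.61 and -0.58, and Egr4, a zinc finger transcription factor, -0.60 and -0.52. Jun read -0.48 and -0.44 and Arc, a regulator of synaptic strength, -0.39 and -0.39. Fos ran against them, at 0.27 and 0.30. Arc was below vehicle on CATSKL array 1 (-0.56) and after ADDL (-0.40 and -0.48) and above it on CATSKL array 2 (0.05) and after ADDL+CAT (0.22 and 0.26). The list median was -0.32 and 0.09 after CATSKL, -0.18 and -0.27 after ADDL, and 0.05 and 0.16 after ADDL+CAT, so the CAT+ADDL arrays took a place between these.

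**Figure D4:**
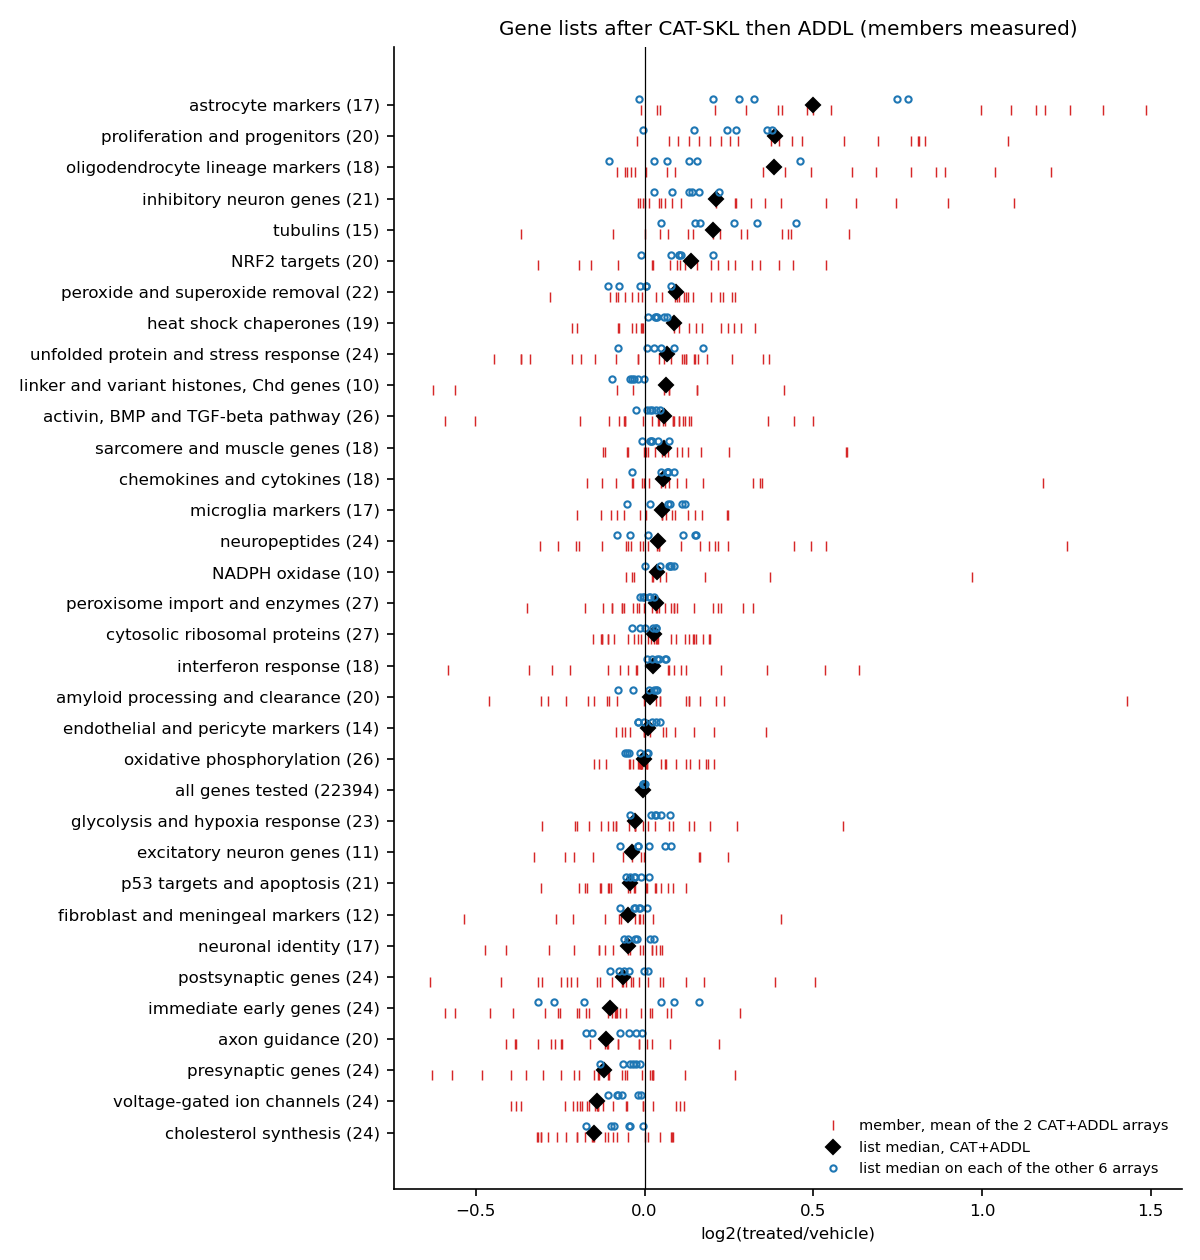
For each gene list (members measured in brackets), red ticks give the log2 ratio of each member averaged over the CAT+ADDL arrays, the black diamond its median, and blue circles the list median on each of the other 6 arrays. Astrocyte, division and oligodendrocyte-lineage lists lie highest (medians 0.50, 0.39 and 0.38), and cholesterol synthesis lowest (-0.15).

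Median centring changed the counts of other lists as well, and over all 22394 genes it gave 1561 higher and 188 lower. Under it 7 of 24 neuropeptide genes, 3 of 22 peroxide and superoxide removal genes, 3 of 27 peroxisome genes, 4 of 19 heat shock chaperones, 4 of 23 glycolysis and hypoxia genes and 5 of 20 amyloid genes were higher, with 0 lower in each. Axon guidance genes had 1 higher and 2 lower, voltage-gated channels 0 and 1, and postsynaptic genes 3 and 1. The activin, BMP and TGF-beta pathway had 1 higher and 1 lower, and chemokine and NADPH oxidase genes 1 higher each. Microglia markers had 2 higher, and endothelial markers and cholesterol synthesis 1 each. With the deposited log ratios, in contrast, 6 of 24 presynaptic, 6 of 24 postsynaptic, 6 of 24 immediate early and 7 of 20 axon guidance genes were lower. Over all 22394 genes, 1755 were lower in that setting.

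Because CAT-SKL supplies catalase activity, genes that handle peroxide were read in detail. Cat, the endogenous catalase gene, read -0.05 and -0.15, against -0.16 and -0.16 after CATSKL, -0.48 and -0.03 after ADDL, and -0.25 and -0.28 after ADDL+CAT (limma -0.10 ± 0.13, adjusted p = 0.870). None of the 22 genes for peroxide and superoxide removal passed 0.32 (median 0.09), beside 1.91% of all genes upward and 2.12% downward. At such shares a count of 0 says little about a list of this size. Prdx1, a peroxiredoxin, read 0.22 and 0.32 and lay above all other arrays (-0.32 to 0.17), and Msra, which repairs oxidised methionine, -0.26 and -0.29. Of 27 genes for peroxisome import and enzymes, 0 passed 0.32 on both arrays (median 0.03), which says as little beside the same shares. Pex2, part of the import machinery, came nearest, at 0.317 and 0.328. Pex5, the receptor for the SKL signal, read -0.18 and -0.17, and its other probe -0.30.

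Targets of NRF2, the factor that switches on antioxidant genes, were higher in 3 of 20 members with 0 lower (median 0.14). Hmox1, heme oxygenase, gave 0.53 and 0.54, and the quinone reductase gene Nqo1 0.48 and 0.40. Slc7a11, the cystine importer, gave 0.38 and 0.42, and another probe 0.03. Hmox1 was above vehicle on every array (0.27 to 0.75), so its value after CAT+ADDL was within the range of the other treatments. With median centring, 10 of the 20 were higher, beside 1561 of all 22394 genes. Of 10 NADPH oxidase genes, Cyba, a membrane subunit (1.06 and 0.88), and Rac2 (0.32 and 0.42) were counted as higher.

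Stress lists were mixed, and counts of 0 among them stand beside 1.91% higher and 2.12% lower over all genes. Of 24 genes of the unfolded protein and integrated stress response, 4 were lower, among them Sesn2 (-0.43 and -0.46), Trib3 (-0.38 and -0.36) and Ppp1r15a (-0.38 and -0.35), and 2 were higher, the chaperone genes Dnajb9 (0.37 and 0.37) and Hsp90b1 (0.35 and 0.35). Trib3 lay below all other arrays (-0.29 to -0.04). With median centring the split of this list was 8 higher and 0 lower. Heat shock chaperones had 0 of 19 past 0.32 (median 0.09), and p53 targets 0 of 21 (median -0.04, 0.07 with median centring), with the cell cycle inhibitor gene Cdkn1a at -0.30 and -0.32. Cholesterol synthesis had the lowest median (-0.15) with 0 of 24 past 0.32, and it turned to 0.04 with median centring. Cyp51 of that list read -0.31 and -0.30.

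Ribosomal proteins (0 of 27, median 0.03) and oxidative phosphorylation (0 of 26, median -0.001) had medians close to 0. With median centring 12 and 7 of them were higher, beside 1561 of all 22394 genes. Glycolysis and hypoxia genes had 1 of 23 higher, the vasodilator gene Adm (0.60 and 0.58). Of 18 sarcomere genes, the myosin genes Myh8 (0.60 and 0.60) and Myh1 (0.63 and 0.57) were higher, and Myh8 lay above all other arrays (0.18 to 0.56).

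Among immune and amyloid genes, single members passed 0.32. Of 18 genes on the chemokine and cytokine list, 3 were higher and 0 lower. They were Vcam1, an adhesion molecule and not itself a chemokine or cytokine, the growth factor gene Csf1 (0.35 and 0.34) and the chemokine gene Ccl3 (0.32 and 0.38). Of 18 interferon-response genes, B2m, the light chain of class I histocompatibility molecules, gave 0.61 and 0.66 and lay above all other arrays (0.26 to 0.54). Isg20, an RNA-degrading enzyme, read -0.60 and -0.56 and lay below the others (-0.56 to -0.10). Of 20 genes for amyloid processing and clearance, 1 was higher, Apoe, and 1 lower.

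In the activin, BMP and TGF-beta pathway, where ligands such as Bmp4 signal to SMAD proteins and induce Id genes, 3 of 26 members were higher and 1 lower. The ligand gene Bmp4 gave 0.49 and 0.51 and the target gene Id1 0.37 and 0.36, both above all other arrays (-0.03 to 0.31 and -0.04 to 0.24). The ligand gene Bmp7 gave 0.54 and 0.35, the inhibitor gene Smad7 -0.25 and -0.13, and the lower member was Inhba. Limma's adjusted p was 0.195 for Bmp4 and 0.197 for Id1.

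Over all genes, the CAT+ADDL arrays both lay above the other 6 arrays for 921 genes (4.11%) and below them for 912 (4.07%), but in no gene by as much as 0.32. The genes named next were chosen after their values were seen, for the widest such gap. Mgp, the matrix Gla protein that inhibits calcification, read 0.67 and 0.75, a gap of 0.24 to the next array (0.43). Haus1, a subunit of the spindle complex augmin, read 0.13 and 0.16, a gap of 0.23. On the low side, Serpina5 read -0.10 and -0.13, a gap of 0.18, and Lyz2, the lysozyme of macrophages and microglia, 0.03 and 0.06 while the other arrays lay between 0.23 and 1.01.

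Set against ADDL alone, the comparison that asks what CAT-SKL beforehand changes, no gene passed limma (0.0%, smallest adjusted p = 0.999) and 878 had an unadjusted p under 0.05 (3.92%). Leaving a gap of at least 0.32, the CAT+ADDL arrays lay above both ADDL arrays for 65 genes (0.290%) and below for 136 (0.607%). Il6st, the shared receptor gp130 of the interleukin-6 family, read -0.41 and -0.26 after CAT+ADDL and 0.23 and 0.24 after ADDL, a difference of -0.57 ± 0.10 (SE, adjusted p = 0.999). Trappc2, a vesicle tethering subunit, read 0.49 and 0.42 against -0.15 and 0.00 (difference 0.53 ± 0.10, adjusted p = 0.999). The transcription factor gene Nfix read -0.48 and -0.48 against 0.06 and 0.11, and Slc25a28, a mitochondrial iron importer, -0.32 and -0.23 against 0.15 and 0.12. For these 4 genes the CATSKL arrays lay on the side of CAT+ADDL: Il6st at -0.15 and -0.25, Trappc2 at 0.30 and 0.36, Nfix at -0.41 and -0.28, and Slc25a28 at -0.19 and -0.22. Il6st and Slc25a28 had 1 spot per array, so duplicate spots could not be compared for them. The median difference between CAT+ADDL and ADDL was 0.07 for astrocyte markers, 0.06 for division genes and -0.11 for neuronal markers. With CAT+ADDL array 1 left out, 3 genes passed, Xpnpep2 and Sfxn1 among them.

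Set against ADDL+CAT, the opposite order of the same agents, no gene passed (0.0%, smallest adjusted p = 0.750) and 1266 had an unadjusted p under 0.05 (5.65%). With a gap of at least 0.32, 214 genes were above both ADDL+CAT arrays (0.956%) and 152 below (0.679%). Septin7, a filament protein, read 0.39 and 0.43 after CAT+ADDL and -0.23 and -0.57 after ADDL+CAT, a difference of 0.81 ± 0.15 (adjusted p = 0.855). Rsl24d1, a ribosome assembly factor, read 0.21 and 0.16 against -0.35 and -0.54, and Pogz, a chromatin protein, 0.16 and 0.18 against -0.36 and -0.30 (another probe of Pogz gave 0.05 against vehicle). The median difference was 0.47 over astrocyte markers, 0.46 over oligodendrocyte-lineage markers and -0.25 over immediate early genes, against -0.001 over all genes. These differences include ADDL+CAT array 2, the dimmest array in Cy5 (median 87.5) and the noisiest between spots. The astrocyte median was 0.28 on ADDL+CAT array 1 and -0.02 on array 2. With median centring, 5 genes passed, and Mbp (2.12, adjusted p = 0.00457), Bcas1 (1.78), Mgp (1.46) and Cdkn1c (1.37) were among them. With either CATSKL array left out, the differences were 1.74 for Cdhr1, 1.65 for Bcas1 and 1.26 for Cdkn1c. The spread between the CATSKL arrays then no longer enters the fit. With CAT+ADDL array 1 left out, 3 passed.

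Set against CATSKL, which lacks the ADDL step, no gene passed (0.0%, smallest adjusted p = 0.806), 84 had an unadjusted p under 0.05 (0.375%), and 2 genes lay above both CATSKL arrays by at least 0.32 (0.00893%) and 0 below. Mcm3 read 0.65 and 0.73 against 0.38 and 0.15, a difference of 0.42 ± 0.14 (SE, adjusted p = 1.00). Haus3, another augmin subunit, read 0.23 and 0.21 against -0.04 and -0.10, and Camk1d, a calmodulin-dependent kinase, -0.25 and -0.33 against -0.07 and 0.09. Mcm3, Haus3 and Camk1d had 1 spot per array, so duplicate spots could not be compared for them either. The CATSKL arrays differed from each other for many leading genes, as for Cdhr1 and Fabp7, and CATSKL array 1 was the closer to CAT+ADDL. With CATSKL array 1 left out, the difference of Cdhr1 was 1.71, set against 1 CATSKL array. With CAT+ADDL array 1 left out, Xpnpep2 differed by -1.31 and Sfxn1 by -1.73, each low through 1 spot of array 2. A p above the threshold does not show that the treatments act alike. The 3 comparisons share the CAT+ADDL sample, and each array has vehicle in Cy3. Whether vehicle RNA came from 1 pool or several cultures is not given in the sources used here, and its spread enters none of these tests.

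**Figure D5:**
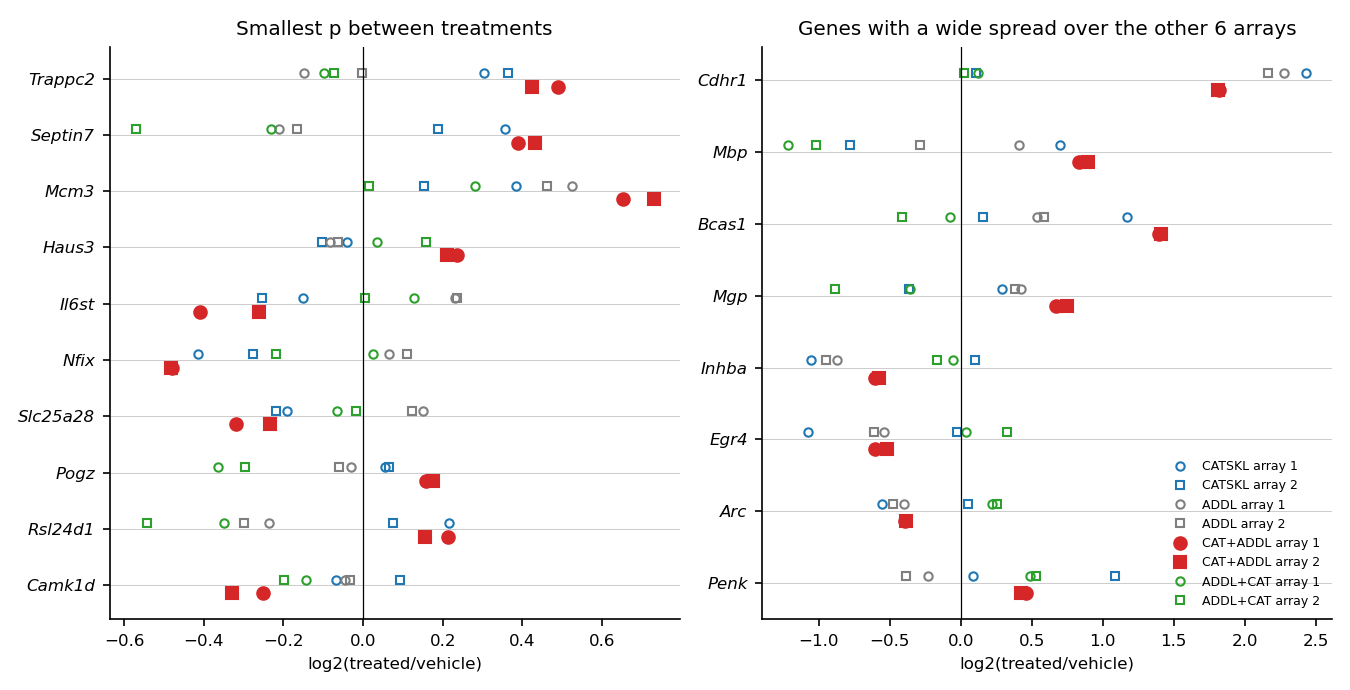
Log2 ratios of treated over vehicle (x axis) on the 8 arrays, symbols as in the plot of leading genes. The left panel shows genes with the smallest p between CAT+ADDL and another treatment. Xpnpep2, Sfxn1 and Inhbb, whose ratios were low through 1 of 2 spots on array 2, are left out. In that panel Il6st, Slc25a28, Mcm3, Haus3 and Camk1d had 1 spot per array. The right panel shows genes with a wide spread over the other 6 arrays. Il6st and Trappc2 after CAT+ADDL lie beyond the ADDL arrays and nearer the CATSKL arrays, and Cdhr1, Mbp and Arc split the arrays of the CATSKL group.

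Some genes differed between the CAT+ADDL arrays, and those with the smallest p-values were among them. Sfxn1, a mitochondrial serine transporter, read 0.06 on array 1 and -1.63 on array 2, where its 2 spots read 0.03 and -3.29. Xpnpep2, an aminopeptidase, read -0.06 and -1.253, with spots of -2.58 and 0.07 on array 2. Of the genes with a symbol, it had the smallest p in all 4 comparisons (limma against vehicle -0.66 ± 0.07, adjusted p = 0.165), and its vehicle signal was well above background on only 1 of the CAT+ADDL arrays. Inhbb, an activin subunit, had spots of -1.84 and -0.06 on array 2, and Sh3bp2 of -1.42 and -0.21. On array 1 the spots of these genes agreed, at -0.02 and -0.10 for Xpnpep2 and 0.10 and 0.03 for Sfxn1. The low ratios on array 2 went with a brighter vehicle channel. Cy3 was 63995.5 on array 2 and 673.5 on array 1 for Sfxn1, 190.75 and 35.75 for Xpnpep2, and 2554.75 and 629.75 for Inhbb. Cy5 was not lower on array 2, at 9892.5 and 856 for Sfxn1, 31.25 and 30.25 for Xpnpep2, and 1189 and 731.5 for Inhbb. Or7a35, an olfactory receptor gene, read 0.49 and 0.02 and was not well above background in vehicle on either array, and the single spot of the taste receptor gene Tas2r120 read 0.25 and -0.18. Of 11896 probes with 2 spots on array 2, 6 had spots more than 1 apart on the log2 scale, and on array 1 this held for 0 of 11978.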

How the data were processed

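Each of 8 Agilent arrays on 1 slide, with 62976 spots, was hybridised with Cy5-labelled RNA of treated and Cy3-labelled RNA of vehicle-treated neurons, per the labels and file headers. The deposited scanner tables give spot and local background intensity as median pixel brightness. Their log10 ratio had its background subtracted and dyes normalised in Feature Extraction 11.5, per the file headers. The authors' deposited series table repeats that log10 ratio with a median of 0 per array. The deposited tables also carry flags (0 or 1) for signal over background, outliers and saturation, per the file headers.

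The intensities were corrected with normexp (offset 50) and normalised by loess within each array, in limma 3.58.1 under R 4.3.3, with outlier spots left out (902 to 1262 per array) and spots of a probe averaged. Tests covered probes that exceeded background clearly in at least 1 channel on 2 or more arrays, and each gene took its brightest probe (2579 genes had several). Values of other probes are given for some genes only. Bcas1, Lrrc7, Nfix and Slc25a28 are among the genes with 2 tested probes whose other probe is not reported here. Accessions without version were matched to RefSeq's GRCr8 gene table, which named 17998 of 30367 probes. The arrays were designed on an older build, so no array coordinates are printed. RefSeq's GRCr8 promoter table held 141 of the 194 named genes.

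Since duplicate spots gave an r below 0.1, the CAT+ADDL arrays were averaged. Lone, this sample is assumed to vary like the other groups. Limma (lmFit, eBayes) then ran on 7 samples, with 3 residual and 5.16 prior degrees of freedom, Benjamini-Hochberg adjustment over 22394 genes and a threshold of 0.05. Errors are limma's SE. Nothing says that samples came from separate cultures beyond the label "biological replicate", and p-values measure their spread only and leave out that of vehicle. The functions were tested on simulated data. The arm, the 33 gene lists (642 of 734 genes measured) and the tests were chosen with earlier results of these data known, so they give no independent support. Genes were named by rule: with a symbol, the 12 highest and 12 lowest against vehicle by the array nearer 0, the 6 smallest p per contrast, up to 5 per list, the 6 with the widest array difference, and Cat. Some are not described or not reported here, and a few list members and wide gaps are named beyond it, chosen after their values were seen. Alternatives covered background, normalisation, filters, probes per gene, the replicate block and each array left out.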

Additional observations from a re-analysis of the deposited data

How the results depend on the processing

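Counts of genes passing limma were 0 in each comparison under the other background corrections, filters, deposited ratios and averaging of probes. With 8 separate samples 2328 passed against vehicle, and with median centring 312 against vehicle and 5 against ADDL+CAT. With single arrays left out, counts ranged from 0 to 5 against vehicle, 0 to 3 against ADDL, 0 to 4 against ADDL+CAT and 0 to 3 against CATSKL; some arms then hold 1 array, which is assumed to vary like the other groups. The replicate numbers did not pair the samples (r of deviations between groups from -0.202 to 0.0784), and with the replicate block 0 genes passed in each comparison.

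Genes higher and lower by 1.5-fold on both arrays numbered 196 and 7 with median centring, 614 and 368 with the deposited log ratios, 192 higher with no background correction, and 182 and 64 with offset 16. Past 0.32 on the log2 scale they numbered 1561 and 188 with median centring, 1415 and 1755 with the deposited log ratios, and 648 higher with no background correction. On single CAT+ADDL arrays they ranged from 124 to 133 higher and 63 to 72 lower (1.5-fold) and from 546 to 578 and 648 to 698 (0.32). The causes were not tested.

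Of the list medians of at least 0.1 in size, cholesterol synthesis changed sign (0.035 with median centring). Tas2r120 turned to -0.016 with median centring. With 1 CAT+ADDL array at a time, it ranged from -0.18 to 0.25, Sfxn1 from -1.63 to 0.064 against vehicle, from -1.55 to 0.14 against ADDL and from -1.64 to 0.056 against ADDL+CAT, and Inhbb from -0.77 to 0.12 against CATSKL. An alternative chosen after seeing the data left out 6 probes whose spots disagree; other probes then gave Inhbb 0.15 and Sh3bp2 0.040. Of the values of named genes under the alternatives, 1992 kept their direction and their side of the threshold and 146 passed it. The r between first and second spots of the CAT+ADDL arrays was 0.00324 to 0.0152 under its alternatives. Dim signals limit what can be read for Gfap, Or7a35 and Xpnpep2.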
